A study of Oryza sativa with 6 samples.

Results

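The account covers 5 loci with shoot surface names, out of 35500 in a table of a rice mesocotyl time course. They carry the product names non-specific lipid-transfer protein 1 (ZS01g0679800), GDSL esterase/lipase At1g71691 (ZS05g0430300), protodermal factor 1 (ZS01g0106400), proline-rich protein 4 (ZS10g0059800) and MFS18 protein (ZS01g0156200). They had been picked because their FPKM was high after 1 day of darkness and after 60 min of light and low elsewhere, so that contrast is given below as a description and supports nothing. The choice used no numeric threshold. A sixth row of the table also carries the name ZS01g0156200 but has no product name, and it reached 0.113 FPKM after 60 min of light and was listed at 0 in the other 5 libraries. Product names come from similarity to annotated proteins. Values are FPKM as deposited, a fragment count corrected for transcript length and library size.

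The outer face of a young shoot is formed by the protoderm, the cell layer that becomes the epidermis and builds the waxy cuticle. Non-specific lipid-transfer proteins are small secreted proteins that bind fatty acids and related lipids, and in Arabidopsis LTP1 lies in epidermal walls. GDSL esterases are secreted hydrolases, and in tomato one of them joins cutin monomers in the cuticle. Protodermal factor 1 and proline-rich protein 4 are named after Arabidopsis wall proteins rich in proline, the first of them expressed in the outermost cell layer of shoot tips. The product name MFS18 comes from a maize gene found in male flowers, and its role in a seedling is not stated here. HD-ZIP IV transcription factors, called ROC in rice, act in the epidermis.

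The mesocotyl is the stem segment below the coleoptile that lengthens in darkness and stops lengthening in light. All 6 libraries came from mesocotyls of the indica cultivar P25, with no mutant or chemical treatment. There were 3 from seedlings kept in darkness for 1, 3 or 5 days after sowing, and 3 were from seedlings given 30 min, 60 min or 24 h of light after 5 days of darkness. Each group was 1 RNA pool and 1 library, and the number of seedlings in a pool is not given in the sources used here. There is therefore no replicate check and no test of any difference below, and higher and lower describe these libraries.

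The libraries summed to between 336212 and 359808 FPKM, and between 15983 and 18612 loci reached 1 FPKM. Total read depth is unknown, so no counting error can be given. An exact 0 in this table can be a failed estimate: each library had 4 to 10 loci at 0 that reached 10 FPKM in every other library. In the 3-day dark library a single locus, ZS07g0251700, held 14.9% of all FPKM.

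Lipid-transfer protein 1 was the most abundant of the 5. It stood at 332, 0 and 0.805 FPKM after 1, 3 and 5 days of darkness, and at 0.336, 430.5 and 0.567 FPKM after 30 min, 60 min and 24 h of light. Its 60-min level was the 48th highest of all loci in that library, and its 1-day level the 104th. Against the highest of the 4 low libraries, 5 days of darkness, it was 535-fold higher after 60 min of light and 413-fold higher after 1 day of darkness. Its product name is shared by 3 other loci, and none of the 3 was high in both libraries: ZS12g0022700 stood at 0.0196 FPKM after 60 min of light and 23.0 after 5 days of darkness, and ZS12g0022800 and ZS03g0750000 did not exceed 5.33 FPKM in any library.

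The GDSL esterase, a secreted lipid hydrolase by its name, stood at 30.9, 0 and 0.0228 FPKM over the dark series and at 0.0826, 88.6 and 0.225 FPKM over the light series. The highest of its 4 low values was that at 24 h of light, and the 60-min level was 393-fold above it. The other locus of the same product name, ZS02g0214400, did not exceed 1.02 FPKM in any library.

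Protodermal factor 1 was the least abundant in both high libraries. It stood at 65.3 FPKM after 60 min of light and 17.1 after 1 day of darkness, and was listed at 0 in the other 4 libraries. Proline-rich protein 4 stood at 298 FPKM after 60 min of light and 135 after 1 day of darkness. MFS18 stood at 293 FPKM after 60 min of light and 59.1 after 1 day of darkness. Both were also listed at 0 in all 4 other libraries, so no fold over those libraries is given for these 3 loci. Together the 5 loci held 0.335% of all FPKM at 60 min of light and 0.159% at 1 day of darkness, with sums of 1175 and 574 FPKM, and their sum did not exceed 0.828 FPKM in any other library. In bulk tissue, fewer cells of a type and less RNA per cell cannot be told apart.

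**Figure D1:**
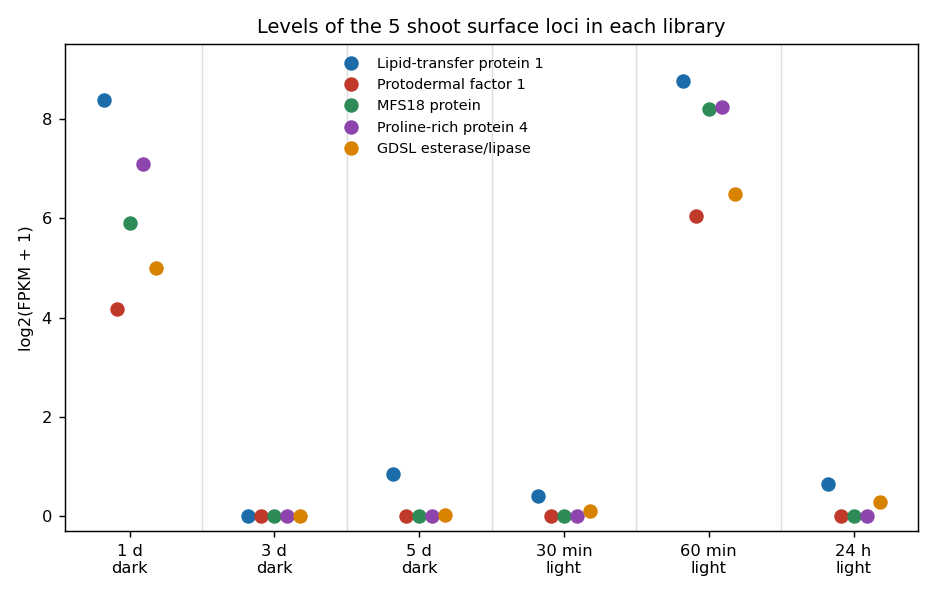
Level of the 5 loci in each of the 6 libraries, as log2(FPKM + 1); each point is 1 library of 1 RNA pool, and there are no error bars because no group has replicates. All 5 lie high at 1 day of darkness and 60 min of light, and at or near 0 in the other 4 libraries, where the highest value was 0.805 FPKM.

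By steps in time, all 5 loci were at least 2-fold lower after 3 days than after 1 day of darkness on the log2(FPKM + 1) scale, where 14.5% of the 23787 loci with at least 1 FPKM in some library were lower. None passed 2-fold between 5 and 3 days of darkness, where 14.5% of loci were higher and 4.79% lower. None passed 2-fold after 30 min of light against 5 days of darkness, with 9.49% of loci higher and 11.4% lower. All 5 were higher after 60 min than after 30 min of light (15.2% of loci), than after 5 days of darkness (14.8%) and than after 3 days of darkness (24% of loci higher and 8.89% lower). All 5 were lower after 24 h than after 60 min of light (15.1%), and none differed by 2-fold between 24 h of light and 5 days of darkness (11.6% of loci higher, 14.4% lower). The rule that picked the loci fixes these counts, so nothing is read from them. The light comparisons with 5 days of darkness share that library.

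The rule did not say which of the 2 high libraries should be higher. The loci were nevertheless picked on their values in both, with earlier results known. The counts that follow therefore describe these loci and support nothing. After 60 min of light, 4 of the 5 loci were at least 2-fold higher than after 1 day of darkness and none was lower, where 18.5% of all loci were higher and 5.45% lower. MFS18 was 4.95-fold higher, protodermal factor 1 3.82-fold, the GDSL esterase 2.87-fold and proline-rich protein 4 2.21-fold, while lipid-transfer protein 1 was 1.30-fold higher. The median difference of the 5 was 1.49 on the log2(FPKM + 1) scale, and that of all loci was 0.27. Scaled to the median ratio of loci, which brings the median of all loci to 0.02, the count was 3 of 5, with proline-rich protein 4 at 0.78 and lipid-transfer protein 1 at 0.01. The order of the 5 by FPKM was the same in both libraries: lipid-transfer protein 1, proline-rich protein 4, MFS18, the GDSL esterase and protodermal factor 1. At 60 min proline-rich protein 4 and MFS18 lay close together, at 298 and 293 FPKM, and with 1 library their order is not resolved.

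The pattern itself was uncommon. Counting loci with 10 FPKM or more in both libraries and at least 4-fold, on the FPKM + 1 scale, above each of the other 4, there were 79, which is 0.223% of the table and 0.332% of loci with at least 1 FPKM. At 1 FPKM and 2-fold there were 433, or 1.82% of measured loci. By the stricter measure 77 loci were high at 60 min of light alone and 93 at 1 day of darkness alone. Ranked by FPKM at 60 min, the 5 loci took places 2, 4, 6, 15 and 21 among the 79. Of the 79, 33 stayed under 1 FPKM in all 4 other libraries and 6 were listed at 0 in all 4, among them protodermal factor 1, proline-rich protein 4 and MFS18. At least 2-fold higher at 60 min of light than at 1 day were 4 of the 5 and 14 of the 79. Of the 79, 5 were lower, and their median was 0.10. Both sets were picked on these 2 libraries, so this too is a description. The 79 include the 5, and the 14 include those 4.

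**Figure D2:**
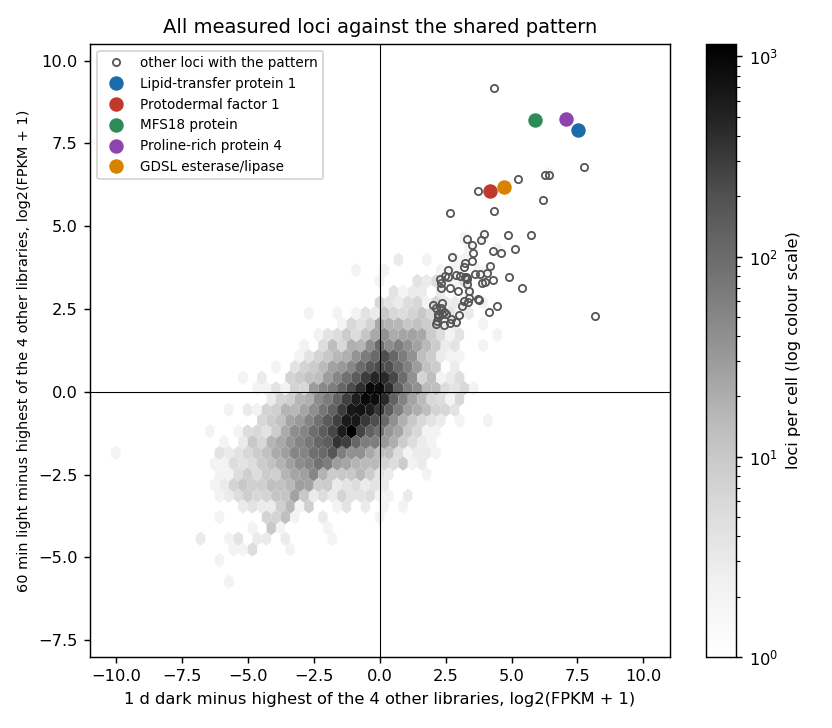
Each measured locus by how far its level at 1 day of darkness (horizontal) and at 60 min of light (vertical) lay above the highest of the other 4 libraries, in log2(FPKM + 1) units; grey cells count loci on a log colour scale, open circles are the other 74 loci with the pattern and coloured points are the 5 described. The 5 lie at the upper right, above the other 4 libraries on both axes.

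Of the 5, the lipid-transfer protein and the GDSL esterase had Gene Ontology terms in the authors' table, and both carried extracellular region. Among the 62 pattern loci with any term, 20 carried it (32.3%), against 774 of 15995 measured loci (4.84%). Lipid catabolic process was given to 6 of the 62 (9.68%) and 0.650% of measured loci, and lipid transport to 5 (8.06%) and 0.400%. Integral component of membrane was as frequent in both, at 12.9% and 13.4%. These are shares without a test, and the 79 loci were picked by their levels.

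Most measured lipid-transfer proteins did not have the pattern. Counts and medians of lists are differences on the log2(FPKM + 1) scale. The list counts are to be read against the shares of all 23787 measured loci: 14.8% higher and 12.8% lower at 60 min of light than at 5 days of darkness, and 13.5% higher and 14.5% lower at 3 days than at 1 day of darkness. Of its 28 measured loci, 8 were past 2-fold higher and 5 past 2-fold lower at 60 min of light than at 5 days of darkness (median 0.46, against 0.01 over all loci), and 11 were lower and 8 higher at 3 days than at 1 day of darkness (median 0.05, against -0.03). The full pattern was met by 3 of the 28 (10.7%, against 0.332% of all measured loci): the locus described and the 2 lipid-transfer protein 3 loci. The first was picked for these levels, so that share is in part fixed by the choice. ZS12g0022500 stood at 186, 5.46 and 5.23 FPKM in the dark series and at 11.1, 297 and 19.0 in the light series, and ZS11g0022800 at 190.3, 6.45 and 8.19 and at 11.8, 257 and 15.7. Their low values were therefore above 5 FPKM, whereas those of lipid-transfer protein 1 stayed under 1. The pair has the same product name, so reads that fit both could have been shared between them. The family's highest value in any single library belonged to lipid-transfer protein 2 (ZS05g0568900), which ran otherwise, at 0, 7.41 and 0 FPKM in the dark series and 5.15, 70.8 and 457 in the light series.

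GDSL esterases contributed more loci. Of 41 measured, 15 were higher and 3 lower at 60 min of light than at 5 days of darkness (median 0.57, with 14.8% and 12.8% of all loci), and 14 were lower and 9 higher at 3 days than at 1 day of darkness (median -0.39, with 14.5% and 13.5% of all loci). The full pattern was met by 5 (12.2%, against 0.332%), a share in part fixed by the choice of the locus described. Beside the one described, At1g20120 (ZS03g0825700) stood at 14.3 FPKM at 60 min of light and 73.4 at 1 day, and did not exceed 0.761 elsewhere. The LTL1-named locus (ZS04g0622700) stood at 21.1 FPKM at 60 min of light and 10.6 at 1 day, with no more than 0.0296 elsewhere. At5g45670 (ZS05g0543300) and At5g45910 isoform X2 (ZS01g0116900) stood at 19.2 and 27.1 FPKM at 60 min and at 25.7 and 23.7 at 1 day. The GDSL locus with the highest value in any library, At5g45910 (ZS06g0444700), stood at 160.9, 9.60 and 22.3 FPKM in the dark series and 10.3, 79.0 and 18.7 in the light series, short of the 4-fold rule. ZS02g0170000, of the same product name, lay between 23.9 and 80.03 FPKM in all 6 libraries.

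Among 9 measured proline-rich proteins, only proline-rich protein 4, itself picked for these levels, met the rule (11.1%, against 0.332% of all measured loci). At 60 min of light 2 of the list were higher and 4 lower than at 5 days of darkness (median -0.52). The 4 lower include the 3 loci of the list at an exact 0 at 60 min, which can be failed estimates. No direction of the list is read from this. At 3 days against 1 day of darkness, 2 were higher and 3 lower (median -0.60). Another proline-rich protein (ZS06g0567700) stood at 76.97 FPKM at 60 min of light and 176 at 1 day of darkness, and at 2.99 to 25.0 in the other 4. The 14 kDa proline-rich protein DC2.15 (ZS02g0545200) ran otherwise, at 548, 216 and 43.2 FPKM in the dark series and 196, 0 and 0 in the light series. Its exact 0 at 60 min and 24 h can be a failed estimate.

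**Figure D3:**
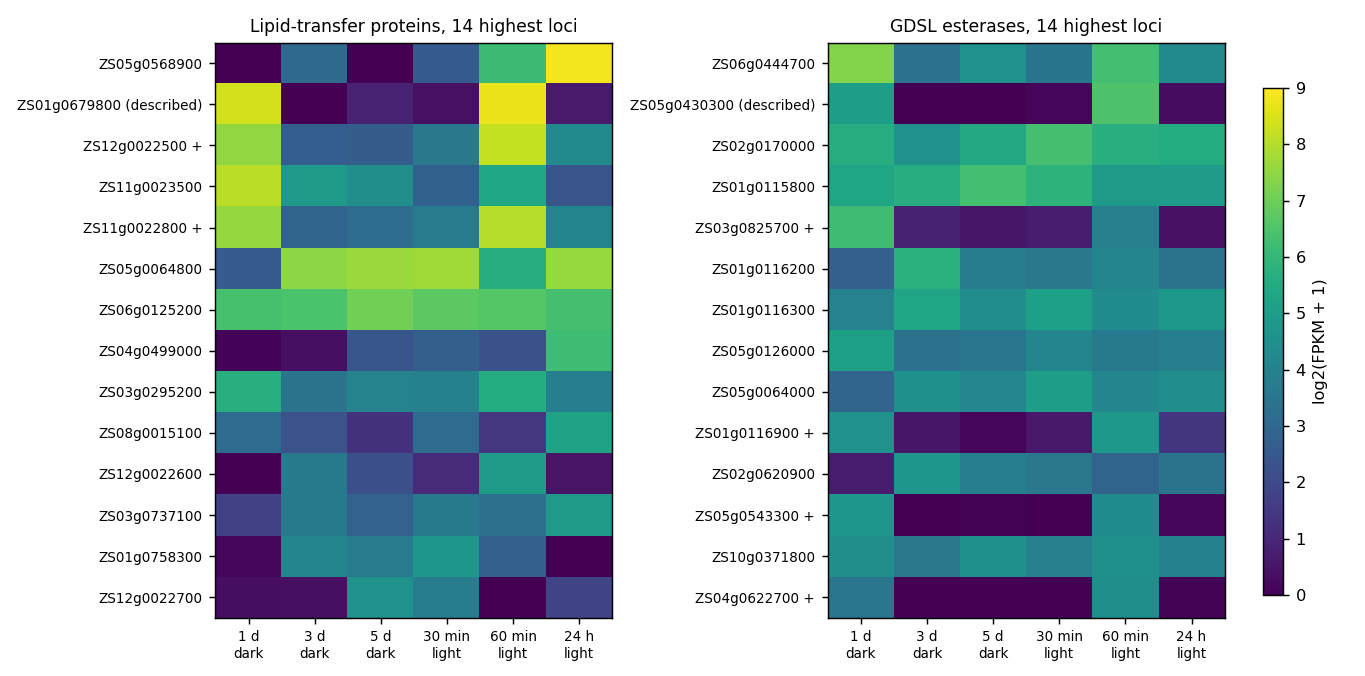
Level of the 14 most abundant lipid-transfer protein loci (left) and GDSL esterase loci (right) in the 6 libraries, as log2(FPKM + 1) in colour; rows run from the highest maximum down, "described" marks the loci of this account and + marks other loci with the pattern. Both families mix loci bright at 1 day of darkness and 60 min of light with loci of other courses, such as ZS05g0568900, brightest at 24 h of light.

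The label of shoot surface was set beside a list of 5 ROC transcription factors and protodermal factor 1, which is itself one of the loci picked for its levels. Of these 6 measured loci, 5 were higher and none lower at 60 min of light than at 5 days of darkness (median 2.64). Of all measured loci, 14.8% were higher and 12.8% lower. At 3 days against 1 day of darkness, 3 were lower and none higher (median -1.47), with 14.5% and 13.5% of all loci. Protodermal factor 1 is in both counts and both medians (6.05 and -4.18), and the choice of loci fixed its place there. Of the ROC loci, all but the ROC6-like locus were higher in the first comparison. Only ROC3 (-2.81) and ROC8 (-2.12) were past 2-fold lower in the second. ROC3 (ZS10g0474000) stood at 6.46, 0.0656 and 0.0108 FPKM in the dark series and at 0.0876, 14.7 and 0.0806 in the light series, which is the course of the 5 at a lower level. ROC8 (ZS06g0122400) stood at 8.26 FPKM at 60 min and 4.50 at 1 day, and did not exceed 0.263 elsewhere. ROC1 (ZS08g0104300) stood at 18.1 FPKM at 60 min and 6.23 at 1 day, with 0.472 to 3.42 in the others, and ROC6 (ZS09g0385800) at 14.2 at 60 min and 4.19 at 1 day, with 1.78 to 3.53. The ROC6-like locus (ZS08g0254700) did not follow the label, with 27.1 FPKM at 60 min, 20.9 at 1 day and between 13.3 and 27.2 in the other libraries.

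Cutin and wax loci were split. Of 33 measured, 14 were higher and 1 lower at 60 min of light than at 5 days of darkness (median 0.48, with 14.8% and 12.8% of all loci), and 11 were lower and 5 higher at 3 days than at 1 day of darkness (median -0.17, with 14.5% and 13.5% of all loci). The list also holds acyltransferases of membrane lipid synthesis, which the name pattern caught. ECERIFERUM 1 (ZS02g0498800), named after an Arabidopsis enzyme that makes wax alkanes, stood at 22.4, 0 and 0.0615 FPKM in the dark series and 0, 49.6 and 0.148 in the light series. Cytochrome P450 77A3 (ZS06g0617100), of a family that hydroxylates cutin monomers in Arabidopsis, stood at 13.3 FPKM at 60 min and 16.1 at 1 day, with at most 0.219 elsewhere. These 2 had the full pattern (6.06%, against 0.332%). Fatty acyl-CoA reductase 1 (ZS08g0642500) had the list's highest value in any library, at 45.6, 36.8 and 86.9 FPKM in the dark series and 46.2, 107.7 and 34.6 in the light series, and 3-ketoacyl-CoA synthase 4 (ZS05g0585000) was lower in both high libraries, at 5.41 FPKM at 60 min and 12.46 at 1 day, than at 3 days of darkness (34.2) or 30 min of light (43.7). Outside the lists, and named after their values were seen, a fiddlehead-like locus (ZS03g0077400) stood at 45.9 FPKM at 60 min and 43.7 at 1 day, and ABC transporter G family member 31 (ZS01g0078100) at 25.7 at 60 min and 23.7 at 1 day. Fiddlehead is an Arabidopsis epidermal acyl synthase, and both loci stayed under 5 FPKM in the other 4 libraries.

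Loci named for the stomatal lineage, which forms pores in the epidermis, were mixed, and 2 of 7 measured had the pattern (28.6%, against 0.332%). Of the 7, 6 were higher and none lower at 60 min of light than at 5 days of darkness (median 2.98). At 3 days against 1 day of darkness, 4 were lower and 1 higher (median -1.53). Of all measured loci, 14.8% were higher and 12.8% lower in the first comparison, and 14.5% lower and 13.5% higher in the second. ERECTA (ZS06g0118200), a receptor kinase of stem growth and stomatal spacing, stood at 56.5, 0.223 and 0.641 FPKM in the dark series and at 0.0821, 31.6 and 0.147 in the light series. The ERECTA-like kinase (ZS02g0664900) stood at 56.8 FPKM at 60 min and 74.6 at 1 day, and at no more than 3.13 elsewhere. EPIDERMAL PATTERNING FACTOR-like protein 1 (ZS02g0640000), a secreted peptide, stood at 29.0 FPKM at 60 min and 3.03 at 1 day, and under 1 in the other 4. EPIDERMAL PATTERNING FACTOR-like protein 9 (ZS01g0758600) stood at 16.6 FPKM at 60 min and 2.42 at 1 day, and EPIDERMAL PATTERNING FACTOR-like protein 2 (ZS07g0026600) at 14.7 at 60 min and 9.42 at 1 day. SCREAM2 (ZS05g0312400) ran otherwise, lowest at 1 day of darkness with 0.810 FPKM and highest at 3 days of darkness with 17.1, and a FAMA-like locus (ZS05g0601500) did not exceed 1.30. Fasciclin-like arabinogalactan proteins are wall and membrane glycoproteins. Of 10 measured, 6 were higher and 1 lower at 60 min of light than at 5 days of darkness (median 1.24). At 3 days against 1 day of darkness, 8 were lower and none higher (median -1.68). The shares of all loci are those given for the stomatal list. The full pattern was met by 1 of the 10 (10%, against 0.332%). This was FLA 11 (ZS01g0537000), at 72.5 FPKM at 60 min and 125 at 1 day, against 8.77 to 16.1 elsewhere. The 2 most abundant others, FLA 13 (ZS05g0580400) and FLA 1 (ZS08g0332400), stood at 142 and 84.6 FPKM at 60 min and 283 and 100.5 at 1 day, with 20.6 to 80.8 elsewhere.

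By the measure of likeness used, which depends on level as well as course, the loci closest to the 5 were mostly without a known product. Ranked by Pearson likeness instead, 1 of the 10 nearest was shared. Likeness was the mean absolute difference over the 6 libraries between log2((FPKM + 1)/(highest FPKM + 1)) of a locus and the median of the 5, among 9738 named loci with at least 10 FPKM in some library. The nearest, at 0.54, was a locus named polyprotein (ZS10g0060000), at 363, 0.677 and 0.407 FPKM in the dark series and 0.361, 183 and 0.417 in the light series. The tenth lay at 1.70, and the median of all 9738 was 5.23. Of the 5 themselves, protodermal factor 1 lay at 1.43 and the GDSL esterase at 1.15, farther out than the nearest of these loci. A locus of the same course at a lower level can thus rank behind. The next 3 were the hypothetical proteins ZS06g0041600 (1.07) and ZS04g0570000 (1.19) and the locus ZS04g0772200 (1.26), with 103.9, 102.9 and 92.3 FPKM at 60 min of light and 46.3, 84.7 and 83.9 at 1 day of darkness. Of the 10 nearest, galacturonosyltransferase-like 9 (ZS02g0626700), named for a family of wall polysaccharide enzymes, and glycine-rich protein 2 (ZS08g0032800) were the ones whose product name was not polyprotein, hypothetical protein or a locus number. The first stood at 54.2 FPKM at 60 min and 71.3 at 1 day and was listed at 0 elsewhere, but the second was also high at 30 min of light, at 69.7 FPKM. The locus nearest to protodermal factor 1 was ZS10g0059400, at 0.09, and ECERIFERUM 1 was also among its 3 nearest, at 0.43. Nearest to the GDSL esterase was ZS06g0041600, at 0.20.

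Proline-rich protein 4 lies in a run of identifiers that share its course. Taking the identifiers in number order, ZS10g0059800 and the next 2, ZS10g0059900 and ZS10g0060000, all had the pattern, and they were the only pattern loci among 76 with an identifier that stood directly beside another. ZS10g0059900, a hypothetical protein, stood at 29.2 FPKM at 60 min of light and 59.2 at 1 day of darkness, and the polyprotein locus ZS10g0060000 at 183 at 60 min and 363 at 1 day, so both were lower at 60 min than at 1 day, while proline-rich protein 4 was higher. The second identifier before it, ZS10g0059400, stood at 66.8 FPKM at 60 min and 12.4 at 1 day, and the retrotransposon-named locus between them, ZS10g0059600, did not exceed 0.0157 in any library. No strand-marking step is stated and the table gives no positions, so reads of overlapping or antisense loci here cannot be told apart.

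None of the loci with identifiers directly beside the other 4 had the pattern. Expansin-A2 (ZS01g0680000), the identifier after lipid-transfer protein 1, stood at 20.1 FPKM at 60 min and 124 at 1 day, and MADS-box factor 3 (ZS01g0106500), after protodermal factor 1, did not exceed 0.131. ZS01g0156300, after MFS18, lay between 33.6 and 75.6 FPKM, and ZS05g0430000 and ZS05g0430500, on either side of the GDSL esterase, between 7.87 and 27.8.

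**Figure D4:**
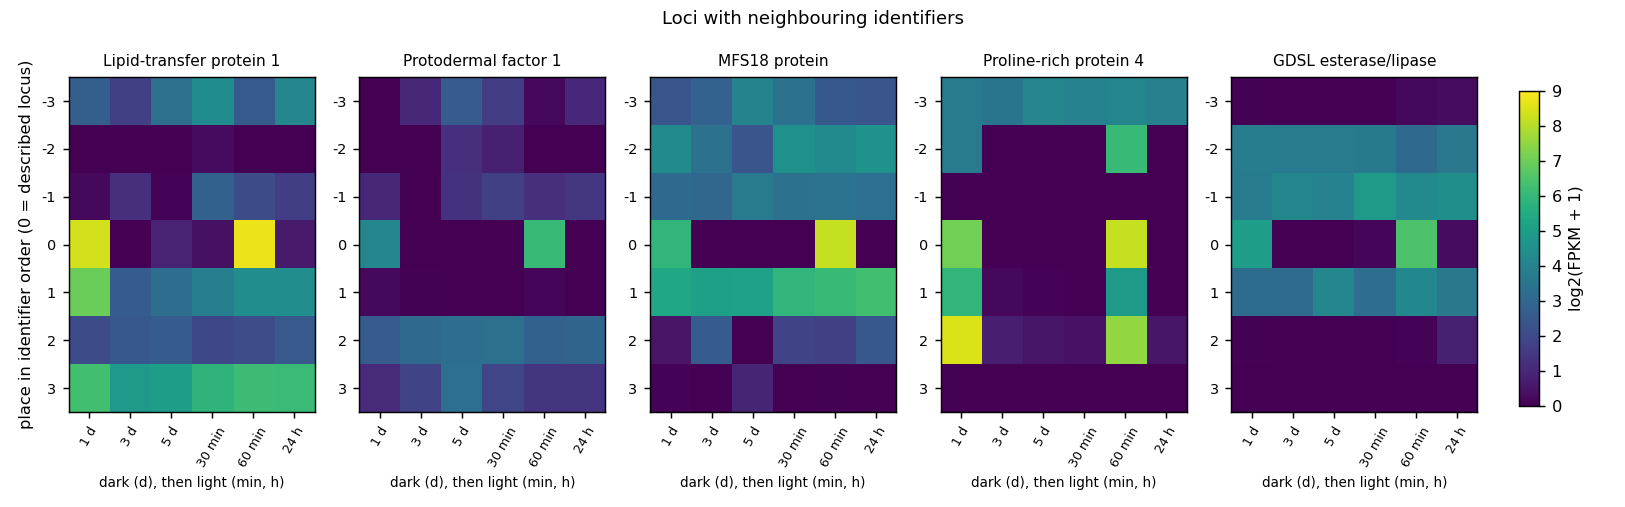
Level, as log2(FPKM + 1) in colour, of each described locus (row 0) and of the 3 identifiers before and after it in number order, over the 6 libraries. Rows bright at 1 day of darkness and 60 min of light surround proline-rich protein 4 at -2, 1 and 2, and no such row lies beside the other 4 loci.

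Markers of other tissues were read in the same libraries. Of 21 measured shoot meristem and young leaf loci, 6 were higher and 4 lower at 60 min of light than at 5 days of darkness (median -0.15, with 14.8% and 12.8% of all loci), and their sum ran from 105.3 FPKM at 24 h of light to 196 at 3 days of darkness, with 137 at 60 min and 110.4 at 1 day. Within it, the YABBY family, which marks lateral organs, had 4 loci, given here after their values were seen. YABBY 5 (ZS04g0646600) stood at 13.1 FPKM at 60 min and 8.999 at 1 day, and at no more than 0.213 elsewhere. YABBY 3 (ZS10g0398900) stood at 4.34 FPKM at 60 min and 2.40 at 1 day, and under 0.22 elsewhere. DROOPING LEAF (ZS03g0108300), a leaf and flower member, was at 1.22 FPKM at 60 min and 0.831 at 1 day and listed at 0 elsewhere. YABBY 6 (ZS12g0500700) stood at 14.4 FPKM at 60 min and 6.08 at 1 day, with 1.88 to 5.51 elsewhere. Of the meristem markers, knotted-1-like 2 (ZS02g0096700) lay between 21.7 and 41.3 FPKM in all 6 libraries, and knotted-1-like 1 (ZS01g0217500) was at 5.22 at 60 min and 21.6 at 1 day. CUP-SHAPED COTYLEDON 1 (ZS04g0629600) was highest at 3 days of darkness, at 48.8 FPKM.

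Dividing-cell loci shared some steps in time with the 5. None of the 31 measured had the pattern, which 0.332% of all measured loci had. None had it at 1 FPKM and 2-fold either, where 1.82% of all measured loci did. At shares this low, none in a list of 31 says little. The sum of this list was above its 1-day value at 30 min and 24 h of light, and what that means for the 5 loci was not tested. Of this list, 19 of 31 were lower and none higher at 3 days than at 1 day of darkness (median -1.41). At 5 days against 1 day, 13 were lower and none higher, with 11.4% of all loci lower and 23.4% higher. Dividing-cell loci summed to 2660 FPKM at 60 min and 1271 at 1 day, and to 592 at 3 days and 962 at 5 days of darkness, 1394 at 30 min and 1687 at 24 h of light, with 19 of 31 higher and 1 lower at 60 min than at 5 days of darkness (median 1.36). Histones H2B.2-like (ZS01g0058700), H2B.11 (ZS01g0694800) and H4 (ZS09g0414200) were its most abundant loci, at 349, 319.8 and 309 FPKM at 60 min. Green-tissue loci summed to 839 FPKM at 60 min but 26.2 at 30 min and 42.7 at 24 h of light. In darkness they summed to 61.3 at 1 day, 21.1 at 3 days and 189.6 at 5 days. The high sum in light was therefore in the 60-min library only. The antenna proteins ZS01g0462400 and ZS03g0506800 stood at 327 and 135 FPKM at 60 min and at 0.152 and 0.318 at 1 day, and the small subunit of Rubisco (ZS12g0195100) at 42.3 at 60 min and 13.9 at 1 day, with 125 at 5 days of darkness. Root loci summed to 106 FPKM at 60 min and 1219 at 1 day. Most of the 1-day sum came from the cortical cell-delineating proteins ZS10g0446300 and ZS10g0444600. These stood at 23.4 and 9.35 FPKM at 60 min and 854 and 350.4 at 1 day. The root loci did not run together: 2 of 6 measured were lower and 1 higher at 3 days than at 1 day of darkness. ZS03g0012400, also named cortical cell-delineating protein, stood at 6.99 FPKM at 1 day, 306 at 3 days of darkness and 31.7 at 60 min. Seed and embryo loci summed to 143 FPKM at 60 min and 51.9 at 1 day, the lowest of the 6 libraries, and were led by LEA proteins such as ZS01g0233800, at 92.5 FPKM at 60 min. The part of YABBY-marked tissue or of dividing cells in the levels of the 5 loci was not tested.

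**Figure D5:**
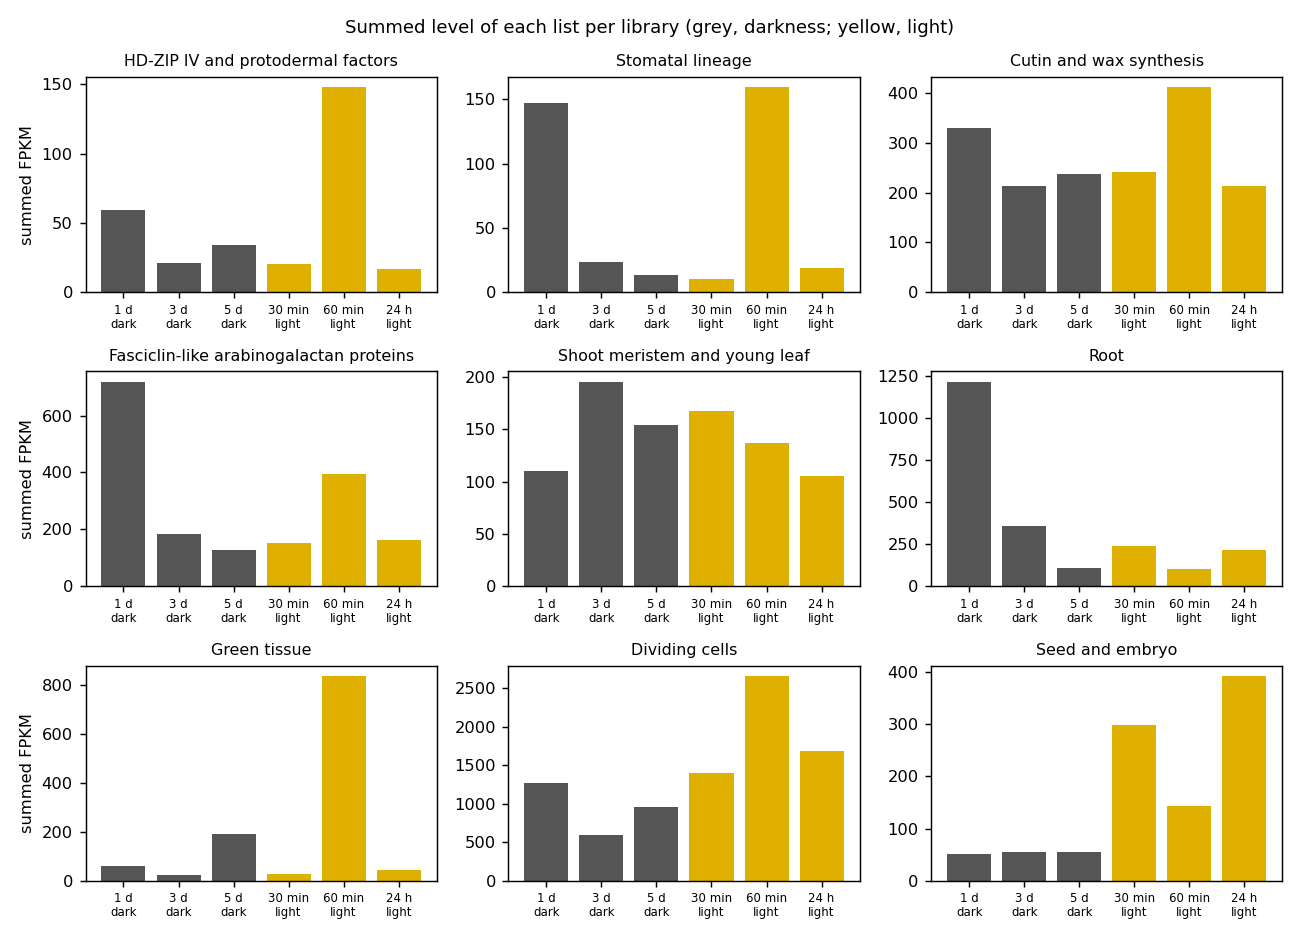
Summed FPKM of each list in the 6 libraries, with bars from 0; grey bars are darkness and yellow bars light, and there are no error bars because each bar is 1 library. The 4 surface lists plotted (HD-ZIP IV, stomatal, cutin and wax, fasciclin-like) stand highest at 1 day of darkness and 60 min of light. Green tissue stands highest at 60 min and root at 1 day. The lipid-transfer, GDSL and proline-rich sums, not plotted, were also highest in those libraries. Those sums and the HD-ZIP IV sum each include 1 of the described loci, so the choice of loci partly fixes them. Proline-rich protein 4 made 298 of the 390 FPKM of its list at 60 min, and that list summed to 251 at 3 days of darkness. Lipid-transfer protein 1 made 430 of 1360 FPKM at 60 min, and its list summed to 978 at 24 h of light.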

How the data were processed

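Mesocotyl RNA was extracted with TRIzol, poly(A) selected and sequenced as paired ends, per the labels' protocols. The authors deposited FPKM for 35500 loci in 6 libraries, per the file headers. Which counter, annotation and filters made them is not given in the sources used here. Bowtie 0.12.2 and mm8, a mouse build, appear in the submitters' processing notes without a stated role. Read depth is unknown, so no counting interval is given.

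Differences were taken on log2(FPKM + 1), which understates those of low loci, over the 23787 loci with at least 1 FPKM in some library, and counted past 2-fold. With 1 library per group there was no test and no replicate check. Loci were named by a rule: the 5 loci, those of the same product name, the nearest in course, the 3 with the highest value in any library and every pattern locus of each list, and the adjoining identifiers. Loci outside it (fiddlehead-like, ABC transporter G 31, the YABBY family, and the ROC and stomatal loci beyond the highest 3) were named after their values were seen. Lists were made by product name. The lipid-transfer list also holds glycolipid transfer proteins, and 2 name patterns (cyclin, OSH) were tightened after the table was opened. The members and lists were chosen with earlier results of these data known. The pattern rule was tested on simulated data. No member matched the reference gene table by name. Alternatives were other pseudocounts, scalings, thresholds and left-out libraries. Python 3.11.15, numpy 2.4.6, pandas 2.3.3 and matplotlib 3.10.9 were used. The deposited p-value and q-value columns were not used.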

Additional observations from a re-analysis of the deposited data

How the results depend on the processing

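No paired analysis was possible because each group is 1 library and no replicate numbers are shared. Under the alternatives, 123 recomputed values stayed equal to the main value or within a set ratio of it, and 14 moved. Many of the 123 are counts of the 5 loci that their choice fixed, so the tally is not a measure of firmness. Past 4-fold in place of 2-fold, 1 of the 5 loci was higher at 60 min of light than at 1 day of darkness. With a pseudocount of 0.1, 1 locus was higher at 5 than at 3 days of darkness, 1 lower at 30 min of light than at 5 days of darkness, and 1 higher at 24 h of light than at 5 days of darkness. Summed over loci of the same product name, 1 was higher at 5 than at 3 days of darkness and 1 lower at 24 h of light than at 5 days of darkness. The pattern was met by 122 loci at 1 FPKM, 17 at 50 FPKM, 198 at 2-fold and 42 at 8-fold, and the 50 FPKM setting kept 3 of the 5 loci. With a pseudocount of 0.1, the loci lower at 3 days than at 1 day of darkness numbered 7 in the shoot meristem and young leaf list, 4 in the seed and embryo list and 6 in the green tissue list. By Pearson likeness, 1 of the 10 nearest loci was shared with the ranking used. The cause of these moves was not tested beyond each setting's own construction. FPKM without depth gives no limit for the values listed at 0.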
